A study of Mus musculus with 6 samples.

Results

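Chemokine ligands were followed in RNA-seq libraries of mouse spleen. The set held 10 genes, Ccl2, Ccl3, Ccl4, Ccl5, Ccl6, Ccl9, Cxcl2, Cxcl9, Cxcl10 and Cxcl16, which were given by symbol and found by their Ensembl identifiers among the 44678 genes of the count tables. Libraries came from 3 wild type (WT1, WT2, WT3) and 3 miR-144/451 knockout samples (KO1, KO2, KO3), each labelled as CD8a+ leukocytes of the spleen and as untreated. In the KO animals the locus that encodes these microRNAs is deleted, and both genotypes are young adults on C57BL/6J. WT and KO animals are not described as littermates in the sources used here, and any part of colony origin in a difference was not tested. Whether the 3 samples of a genotype were 3 separate mice is not given in the sources used here, so p-values measure only the spread between these samples, which may be technical.

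Chemokines are small secreted proteins that attract leukocytes through G protein-coupled receptors. Ccl3, Ccl4 and Ccl5 are released by activated cytotoxic T cells, natural killer (NK) cells and macrophages. Cxcl9 and Cxcl10 are induced by interferon-gamma and draw T cells that carry Cxcr3, and Cxcl16 is a membrane-bound ligand of Cxcr6. Ccl2 recruits monocytes through Ccr2, Cxcl2 recruits neutrophils through Cxcr2, and Ccl6 and Ccl9 are rodent ligands of Ccr1 that are made largely by myeloid cells. In the spleen, CD8a marks cytotoxic T cells and also the type 1 conventional dendritic cells (cDC1).

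The microRNAs that the KO mice lack are shown here because their seeds, bases 2 to 8 in capitals, set which letters were searched for in the 3′-UTRs of the chemokine ligands. The mature sequences are those of RefSeq on GRCm38.p6, plus strand, at chr11:78073010-78073032 for miR-144-5p, chr11:78073047-78073066 for miR-144-3p and chr11:78073186-78073207 for miR-451a.
miR-144-5p: gGAUAUCAucauauacuguaagu
miR-144-3p: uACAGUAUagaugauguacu
miR-451a: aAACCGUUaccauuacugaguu
No seed is shared between the 3. The longest annotated 3′-UTR of each of the 10 ligands was searched for the 7 letters that pair with each seed, and 2 ligands held a match, both to miR-144-5p. The matches lay at position 1773 of the 2465 bases of the Ccl9 3′-UTR (chr11:83573599-83573619, minus strand, GRCm38) and at position 2417 of the 2452 bases of the Cxcl9 3′-UTR (chr5:92321370-92321390, minus strand). Both are printed as DNA, with the letters that pair with the seed in capitals and followed by an A.
Ccl9: agaaagaaTGATATCatctgc
Cxcl9: aagcgtagTGATATCagtaaa
Over 21037 genes with an annotated 3′-UTR, 6.12% held a miR-144-5p match, 11.9% a miR-144-3p match and 1.75% a miR-451a match. Ccl9 and Cxcl9 have the longest 3′-UTRs of the 10 genes, the others running from 199 bases in Ccl5 to 1494 in Cxcl2. A match of letters is a description and not a measured site.

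Library totals ran from 8143971 to 8876570 counts. The count tables listed the precursors Mir144 and Mir451a at 0 in all 6 libraries of both genotypes, so the deletion could not be checked from them. Cd8a, the marker named in the labels, stood at 694, 1041 and 977 CPM (counts scaled to a common library size, with edgeR's TMM normalization) in WT and at 688, 476 and 1030 CPM in KO. The libraries were not of 1 cell type, since no marker of the T, NK, B, dendritic, monocyte, neutrophil, red pulp macrophage or erythroid lists was at 0 in any library. WT1, KO1 and KO2 carried more B cell and myeloid transcripts than WT2, WT3 and KO3. The summed neutrophil markers, for example, were 1140, 360 and 309 CPM in WT1, WT2 and WT3 and 1210, 1390 and 455 CPM in KO1, KO2 and KO3. In such bulk samples, fewer cells of a type and less RNA per cell cannot be told apart.

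All 10 ligands passed the filter on low counts and were tested. None passed an adjusted p of 0.05 in the quasi-likelihood test of edgeR, with p-values adjusted by Benjamini-Hochberg over all genes, where 0.0307% of the 13024 genes tested did, nor with DESeq2 or limma voom. At an unadjusted p under 0.05, 2 of the 10 passed, Ccl5 (lower in KO) and Cxcl9 (higher in KO), against 6.25% of all genes tested, 2.11% lower and 4.14% higher in KO. DESeq2 counted 3 and limma voom 1, for which the share of all genes was not taken. The libraries of the 2 genotypes did not overlap for 1 ligand, Ccl5, and for 11.5% of all genes, 5.64% with KO lower and 5.83% with KO higher. The fitted change was above 0 for 7 ligands and below 0 for 3, with 50.6% of all genes above 0, and its median was 0.32 on the log2 scale beside 0.0030 over all genes tested. That median depended on the analysis. It was 0.026 with limma voom, where 5 ligands were above 0 and 5 below, 0.19 with the replicate number as a block, and -0.12 without KO2.

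Ccl5 was the most abundant of the ligands in every library. It stood at 576, 385 and 342 CPM in WT1, WT2 and WT3 and at 227, 329 and 333 CPM in KO1, KO2 and KO3. Each KO library lay below each WT library, although KO3 and WT3 were close. The WT mean was 434 ± 125 CPM (SD, n = 3) and the KO mean 296 ± 60.1 CPM (SD, n = 3), a log2 fold change of -0.55 with a standard error (SE) of 0.22. The unadjusted p was 0.0362 and the adjusted p 0.786 in edgeR's test, and an exact two-sided permutation test gave 0.1, the smallest value that 3 against 3 libraries allow. The direction was kept in all 14 alternative analyses, with values from -0.71 (without WT3) to -0.30 (without WT1).

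Ccl4 and Ccl3 are encoded in the same cluster as Ccl5, and neither had the 2 genotypes apart. Ccl4 was at 34.1, 18.9 and 16.1 CPM in WT1, WT2 and WT3 and at 13.1, 34.3 and 20.8 CPM in KO1, KO2 and KO3. The 2 highest values, in KO2 and WT1, were nearly equal, and the ranges overlapped fully, with a log2 fold change of -0.024 (SE 0.38). Its interval of ±2 SE ran from -0.79 to 0.74, which leaves room for a change in either direction and includes the value of Ccl5. The ratios of Ccl5 to Ccl4 and of Ccl5 to Ccl3 also overlapped between genotypes, each with an exact permutation p of 0.2. Ccl3 was at 25.1, 11.3 and 10.1 CPM in WT1, WT2 and WT3 and at 27.2, 39.2 and 13.6 CPM in KO1, KO2 and KO3. Its mean was higher in KO (26.7 ± 12.8 against 15.5 ± 8.35 CPM, SD, n = 3), but KO3 lay below WT1, and the log2 fold change of 0.78 (SE 0.44) had an adjusted p of 0.816 in edgeR's test. Its size depended on single libraries, at 1.32 without WT1 and 0.40 without KO2. WT1, KO1 and KO2 were the 3 highest for Ccl3. They were also the richest in NK cell, B cell, monocyte, neutrophil and red pulp macrophage markers. The part of any of those cells in the level of Ccl3 was not tested.

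**Figure D1:**
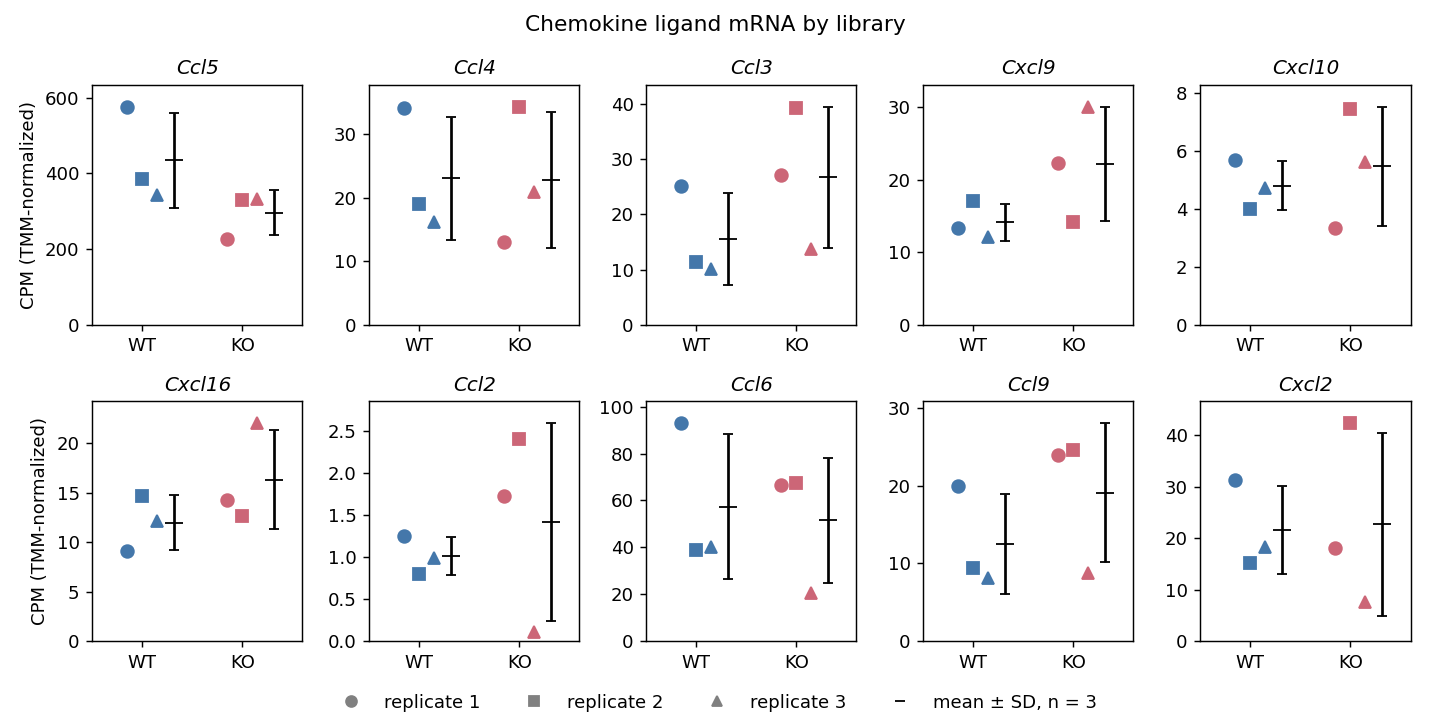
Level of each chemokine ligand in CPM (vertical axis, linear, from 0, on a scale of its own in each panel) in the 3 WT and 3 KO libraries. Points are libraries, with a symbol for each replicate number, and bars are the mean ± SD of 3. Ccl5 is the panel in which all KO points lie below all WT points, from 227 to 333 against 342 to 576 CPM, and in the other panels the points of the 2 genotypes overlap.

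Cxcl9, which attracts Cxcr3-bearing T cells, was at 13.3, 17.0 and 12.0 CPM in WT1, WT2 and WT3 and at 22.2, 14.2 and 30.003 CPM in KO1, KO2 and KO3. KO1 and KO3 lay above every WT library and KO2 lay within the WT range. The WT mean was 14.1 ± 2.57 CPM (SD, n = 3) and the KO mean 22.1 ± 7.90 CPM (SD, n = 3). The log2 fold change of 0.65 (SE 0.27) had an unadjusted p of 0.0440 and an adjusted p of 0.786 in edgeR's test, and the exact permutation p was 0.2.

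Cxcl10, the partner of Cxcl9 at the same receptor, was lower in abundance, at 5.71, 3.99 and 4.72 CPM in WT1, WT2 and WT3 and at 3.36, 7.46 and 5.61 CPM in KO1, KO2 and KO3. KO libraries held both its highest and its lowest value, and the log2 fold change was 0.19 (SE 0.33). Exons of Cxcl10 overlap 133 bases of Art3 on the opposite strand, and whether counting used strand is not given in the sources used here, so its level carries that uncertainty. Cxcl9 and Cxcl10 had different orders of the libraries, with Cxcl9 highest in KO3 and KO1 and Cxcl10 highest in KO2 and WT1.

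The proximal promoters of the pair also differed in the letters they hold. From 250 bases before to 50 after the start, in RefSeq's sequence on GRCm38.p6, the Cxcl10 promoter held 1 interferon-stimulated response element (ISRE, GAAA repeated after a gap of 2 bases) and 2 matches to the NF-κB consensus. They are printed in capitals within 30 bases of the minus strand, at chr5:92349083-92349112, chr5:92349029-92349058 and chr5:92348973-92349002, and begin 213, 159 and 103 bases before the start.
Cxcl10 ISRE: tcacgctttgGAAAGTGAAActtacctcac
Cxcl10 NF-κB, distal: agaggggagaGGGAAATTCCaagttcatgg
Cxcl10 NF-κB, proximal: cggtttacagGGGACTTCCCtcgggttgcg
The Cxcl9 window held none of these. Searched on both strands, the ISRE was in 3.44% and the NF-κB consensus in 4.51% of 32851 promoters of the same length. These are matches of letters only. Of the 10 ligands, 6 had a promoter entry, and Cxcl2 and Ccl9 also held the NF-κB consensus.

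Cxcl16, the ligand of Cxcr6 on memory and resident T cells, was at 9.13, 14.6 and 12.2 CPM in WT1, WT2 and WT3 and at 14.2, 12.6 and 22.0 CPM in KO1, KO2 and KO3. KO3 stood above the other 5 libraries, which overlapped, and WT1 was lowest. The log2 fold change was 0.45 (SE 0.26), with an adjusted p of 0.817 in edgeR's test. Exons of Cxcl16 overlap 552 bases of Zmynd15 on the opposite strand. Cxcl9 and Cxcl16 kept their direction in all 14 alternative analyses, from 0.35 to 0.93 for Cxcl9 and from 0.15 to 0.85 for Cxcl16, both smallest without KO3. Cxcl16 was at 0.28 without WT1. The summed cDC1 markers were higher in each KO library (739, 702 and 675 CPM) than in each WT library (528, 523 and 576 CPM), with 6 of the 7 markers higher in KO and 4 of them at an unadjusted p under 0.05, where 4.14% of all genes were higher at that p. The part of cDC1 in the levels of Cxcl9 and Cxcl16 was not tested.

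For the ligands that act on monocytes and neutrophils, libraries of the same genotype lay farther apart than the genotype means. Ccl6 was at 92.9, 38.9 and 40.0 CPM in WT1, WT2 and WT3 and at 66.4, 67.2 and 20.7 CPM in KO1, KO2 and KO3, a range of 4.48-fold with the highest value in WT and the lowest in KO. Its log2 fold change was -0.16 (SE 0.47, adjusted p = 0.957 by edgeR's test). Ccl9, the gene next to Ccl6, was at 20.0, 9.36 and 8.19 CPM in WT1, WT2 and WT3 and at 24.0, 24.5 and 8.82 CPM in KO1, KO2 and KO3. It was high in WT1, KO1 and KO2 and low in the other three, and its log2 fold change was 0.61 (SE 0.45), with 1.12 without WT1 and 0.36 to 0.39 without WT3, KO1 or KO2.

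Cxcl2 was at 31.3, 15.2 and 18.4 CPM in WT1, WT2 and WT3 and at 18.2, 42.3 and 7.67 CPM in KO1, KO2 and KO3. KO libraries held both extremes, 5.52-fold apart, and the log2 fold change was 0.070 (SE 0.54). The direction of Cxcl2 turned in 6 of the 14 alternative analyses, for example to -0.74 without KO2 and to -0.21 with limma voom. Of the 31-base words in the Cxcl2 transcripts, 7.59% also occur in Cxcl3, a close paralog. Ccl2 was the scarcest ligand, with 11, 7 and 8 counts in WT1, WT2 and WT3 and 15, 20 and 1 counts in KO1, KO2 and KO3. These correspond to 1.26, 0.799 and 0.993 CPM in WT and to 1.74, 2.41 and 0.115 CPM in KO, and the single count of KO3 is under the floor of 3 counts, below which a gene cannot be told from one at 0. Its log2 fold change of 0.47 had an SE of 0.76, and its direction turned to -0.14 without KO2.

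Per kilobase of the longest coding transcript, the ligands differed widely in level. The WT mean was 816 ± 235 CPM per kilobase (SD, n = 3) for Ccl5. It was 39.8 for Ccl6, 34.9 for Ccl4, 20.2 for Ccl3 and 11.6 for Cxcl2. The remaining ligands lay at 4.89 for Cxcl9, 4.43 for Cxcl16, 4.16 for Ccl9, 3.55 for Cxcl10 and 1.25 for Ccl2. Between neighbours in this order, the WT libraries were apart for Ccl5 and Ccl6 (20.5-fold, and Ccl5 above Ccl6 in 6 of 6 libraries), for Cxcl2 and Cxcl9, and for Cxcl10 and Ccl2. The other 6 pairs of neighbours overlapped. Of the summed CPM of the 10 ligands, Ccl5 made up 71.2%, 74.7% and 73.6% in WT1, WT2 and WT3 and 54.4%, 57.4% and 72.0% in KO1, KO2 and KO3. The whole sum overlapped between genotypes, at 809, 515 and 464 CPM in WT and 417, 574 and 462 CPM in KO.

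Profiles over the 6 libraries were compared as log2(CPM + 0.5) centred on the mean, with the root mean square (RMS) difference as the measure of likeness. With 6 libraries and genes that share depth and cell content, this is a description. Ccl5, Ccl4 and Cxcl10 lay nearest to the summed markers of effector or memory T cells (Gzma, Gzmb, Gzmk, Nkg7, Prf1, Klrg1, Eomes and Tbx21), at an RMS of 0.215, 0.391 and 0.275. Cxcl9 and Cxcl16 lay nearest to the cDC1 markers, at 0.381 and 0.327. A flat profile lay at 0.446, 0.366, 0.507 and 0.339 from Cxcl9, Cxcl16, Ccl4 and Cxcl10, so their nearest lists were not much closer. Ccl3 was nearest to the NK markers at 0.231, with neutrophil markers at 0.238, and Ccl2, Ccl6, Ccl9 and Cxcl2 were nearest to the B cell markers, a list that itself moved with the myeloid lists. Among the ligands themselves, the closest pairs were Ccl3 with Ccl9 (0.182), Cxcl9 with Cxcl16 (0.223) and Ccl4 with Cxcl10 (0.270).

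The single genes with the nearest profiles were listed for the 8 ligands with a mean of at least 10 CPM. For Cxcl9 these were Xcr1, the chemokine receptor that defines cDC1 (0.085), Gpr141b and Zfp968. Xcr1 itself stood at 15.7, 17.7 and 15.4 CPM in WT1, WT2 and WT3 and at 25.4, 16.5 and 33.7 CPM in KO1, KO2 and KO3, with the same KO library low as for Cxcl9. For Cxcl16 the nearest were Slfn10-ps (0.092), Nek6 and Kcnh3. For Ccl4 they were Ccne2 (0.114), BC030867 and the cytotoxic granule protease Gzmb (0.145), and for Ccl5 they were Ap1m2 (0.131), Lyrm4 and Tcrg-C2, a constant segment of the gamma T cell receptor.

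Of the ligands of myeloid receptors, Ccl3 was closest to Cd302 (0.080), Fgd4 and Anxa1, and Ccl9 to Gm49339 (0.109), Hacd4 and F13a1, a monocyte transcript (0.124). Ccl6 was closest to Trem3 (0.158), Cd300ld3 and Gm26540, and Cxcl2 to Zbtb16 (0.091), Fabp4 and Ace. Ace was at 113, 62.4 and 91.3 CPM in WT1, WT2 and WT3 and at 97.1, 161 and 42.6 CPM in KO1, KO2 and KO3, in the same order as Cxcl2 for its highest (KO2), second (WT1) and lowest (KO3) library.

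**Figure D2:**
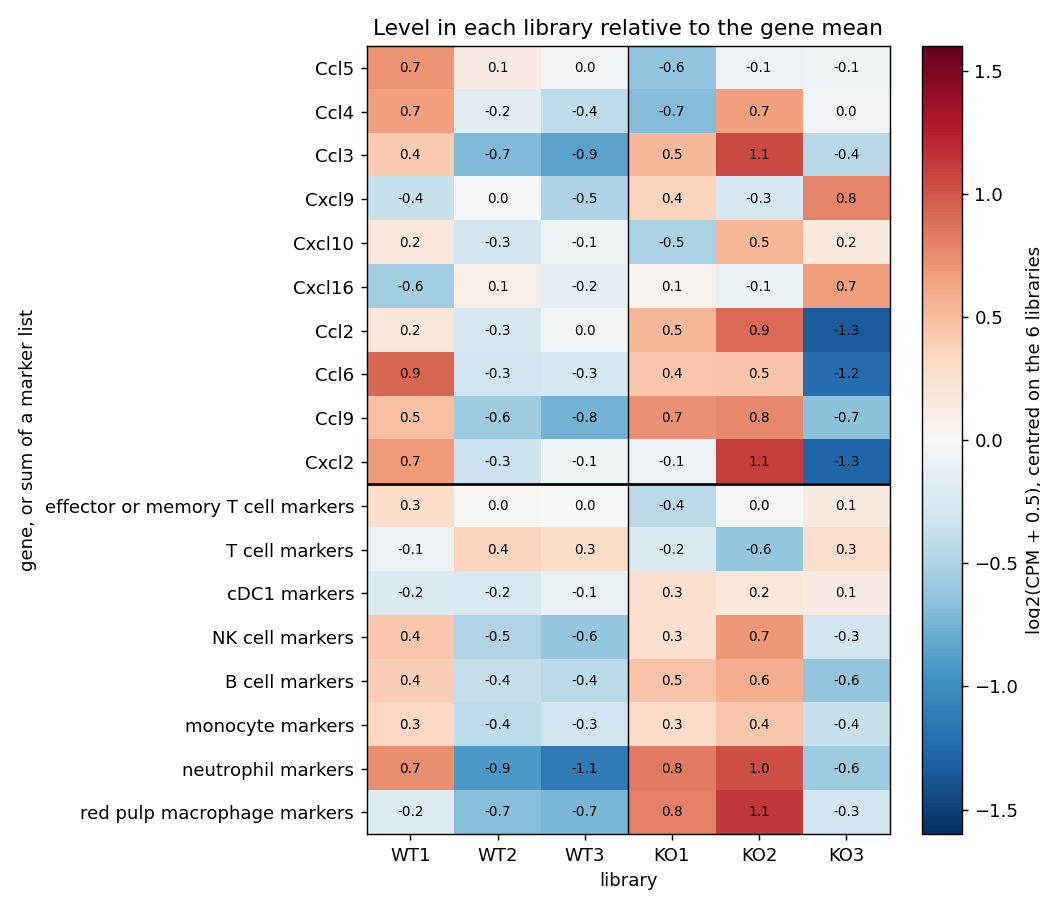
Each cell gives log2(CPM + 0.5) of a ligand, or of the summed CPM of a marker list below the line, in a library, minus the mean of that row over the 6 libraries. Red is above and blue below the mean, and columns are the 3 WT and 3 KO libraries. Ccl3 and Ccl9 are red in WT1, KO1 and KO2 as the B cell and neutrophil markers are, while Cxcl9 and Cxcl16 are reddest in KO3.

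Since WT1, KO1 and KO2 carried more myeloid transcripts, the genotypes were also compared with the mean log2(CPM + 1) of 30 monocyte, neutrophil and red pulp macrophage markers as a covariate. That level was 6.01, 5.09 and 4.95 in WT1, WT2 and WT3 and 6.45, 6.63 and 5.29 in KO1, KO2 and KO3, so it differed partly with genotype. The red pulp macrophage markers were all higher in KO (13 of 13, 11 of them at an unadjusted p under 0.05), with a median log2 fold change of 1.25. Of all genes tested, 50.6% were higher in KO, and 4.14% were higher at that p. In this fit, 1 of the 10 ligands, Ccl6, passed the adjusted threshold, where 0.0691% of all genes did, and 5 of 10 passed an unadjusted p of 0.05, where 6.61% of all genes did.

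Ccl6 was lower in KO by this fit, with a log2 fold change of -1.19 (SE 0.13, adjusted p = 0.00564 by edgeR's test). With monocyte markers alone as the covariate it was -0.75 (adjusted p = 0.0583), with neutrophil markers alone -0.82 (adjusted p = 0.261) and with red pulp macrophage markers alone -1.71 (adjusted p = 0.0567), by the same edgeR test, and these no longer passed, while with B cell markers alone it was -0.61 (adjusted p = 0.0365) and passed. With each library left out it stayed between -1.26 and -1.09, and the call was lost without WT1 (adjusted p = 0.135 by edgeR's test). Without the covariate it was not called in any analysis, and its sign turned to 0.38 without WT1 and 0.20 without KO3. These fits with single lists or fewer libraries were added after the values were seen.

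The other 4 ligands at an unadjusted p under 0.05 in the fit with the covariate were Cxcl9 at 0.93 (SE 0.25) and Cxcl16 at 0.85 (SE 0.19), both higher, and Cxcl2 at -1.11 (SE 0.35) and Ccl5 at -0.65 (SE 0.22), both lower. Their adjusted p ran from 0.238 to 0.568 in edgeR's test. Ccl3 and Ccl9, which were higher in KO without the covariate, had values near or below 0 with it, -0.086 (SE 0.18) and -0.31 (SE 0.18). The median of the 10 ligands turned from 0.32 to -0.35.

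**Figure D3:**
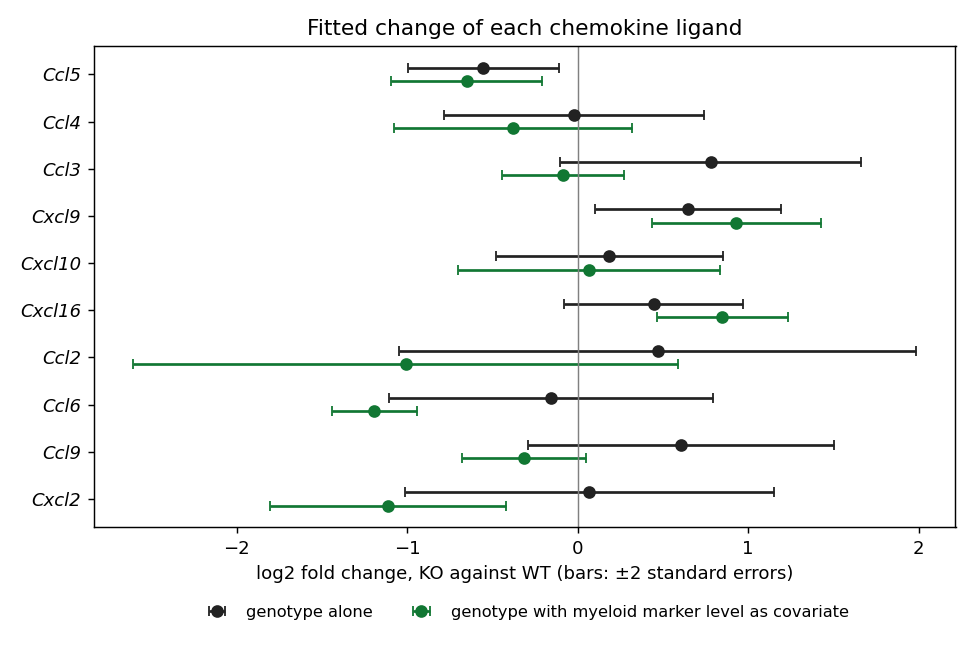
Fitted log2 fold change of KO against WT for each ligand (horizontal axis), with bars of ±2 SE, from the fit on genotype alone (black) and from the fit with the myeloid marker level as a covariate (green). Ccl6 moves from -0.16 to -1.19 and Cxcl2 from 0.070 to -1.11, while Ccl5, Cxcl9 and Cxcl16 keep their direction.

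Ratios within a library show the same data without a model, and those given here were picked after their values were seen. Ccl6 per Ccl9, the gene beside it, was 4.65, 4.16 and 4.88 in WT1, WT2 and WT3 and 2.77, 2.74 and 2.35 in KO1, KO2 and KO3. The WT mean was 4.56 ± 0.368 (SD, n = 3) and the KO mean 2.62 ± 0.235 (SD, n = 3), with an exact permutation p of 0.1, the smallest possible. All KO ratios lay below all WT ratios, as they did for 1.30% of all genes set against Ccl9. Ccl6 per Ccl3 was 3.70, 3.44 and 3.98 in WT and 2.44, 1.71 and 1.52 in KO, also apart, as for 3.30% of genes set against Ccl3 in either direction. Of the 45 pairs of ligands, 5 had ratios that did not overlap, the others being Cxcl2 to Ccl3, Ccl5 to Cxcl16 (apart for 18.3% of genes set against Cxcl16) and Ccl5 to Cxcl10. Ccl5 per Cxcl10 was 101, 96.4 and 72.5 in WT and 67.6, 44.2 and 59.3 in KO, and the ratio to Cxcl10 was apart for 1.74% of genes.

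Against the summed markers, Ccl6 per 1000 CPM of neutrophil markers was 81.5, 108 and 129 in WT and 54.9, 48.4 and 45.6 in KO, apart as for 1.37% of all genes. Per 1000 CPM of red pulp macrophage markers it was 107, 62.7 and 66.6 in WT and 38.2, 30.7 and 25.8 in KO, where 29.2% of genes were apart. Per 1000 CPM of monocyte markers it overlapped, at 52.1, 36.4 and 35.0 in WT and 38.1, 35.3 and 18.7 in KO. Ccl6 was apart for 3 of the 10 lists, those of neutrophils, red pulp macrophages and B cells (2.52% of genes apart), and overlapped for 7. Its mean was higher in KO per 1000 CPM of T cell markers (22.0 against 18.0) and of effector or memory T cell markers (97.0 against 84.4). Cxcl9 per 1000 CPM of T cell markers was 4.74, 4.44 and 3.29 in WT and 8.65, 7.27 and 8.22 in KO, and Cxcl16 was 3.24, 3.82 and 3.33 in WT and 5.54, 6.47 and 6.03 in KO, both apart as for 6.29% of genes. That denominator was itself low in KO1 and KO2, and against each of the other 9 marker lists both ligands overlapped. Per 1000 CPM of cDC1 markers, the list nearest to them in profile, Cxcl9 was at 26.2 ± 5.86 in WT and 31.6 ± 12.2 in KO (SD, n = 3), and Cxcl16 at 22.1 ± 5.38 in WT and 23.3 ± 8.08 in KO (SD, n = 3). Ccl5 per 1000 CPM of effector or memory T cell markers was 771, 620 and 567 in WT and 502, 556 and 494 in KO, so that KO lay below WT, as for 0.353% of genes, with 8.55% apart in either direction. Per 1000 CPM of T cell markers Ccl5 overlapped, at 205, 101 and 93.5 in WT and 88.3, 169 and 91.2 in KO, and it also overlapped against the B cell, monocyte and neutrophil markers. Against the NK cell, cDC1, plasmacytoid dendritic cell, red pulp macrophage and erythroid markers KO lay below WT as well, which made 6 of 10 lists. In that order, KO lay below WT for 1.79%, 51.8%, 4.81%, 29.1% and 1.05% of all genes. Over all 10 ligands and 10 marker lists, 16 of 100 ratios were apart, where the share of all genes ran from 1.11% against erythroid markers to 52.6% against cDC1 markers.

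**Figure D4:**
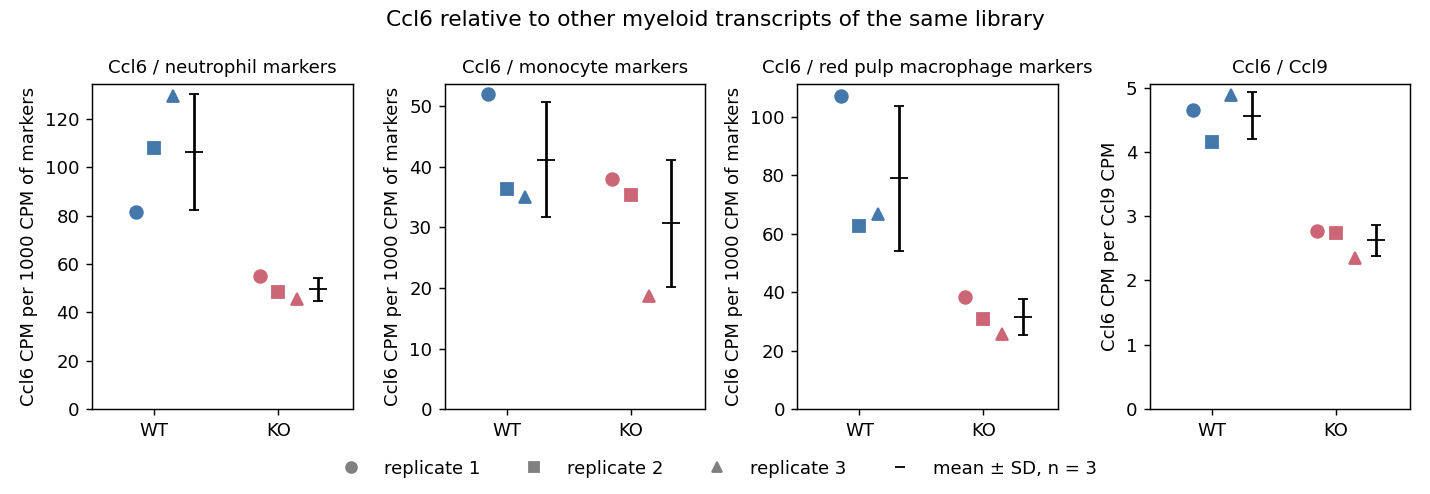
Ccl6 divided by other transcripts of the same library (vertical axes from 0), as CPM per 1000 CPM of summed neutrophil, monocyte or red pulp macrophage markers and as CPM per CPM of Ccl9. Points are libraries and bars the mean ± SD of 3. The genotypes are apart in each panel but that of the monocyte markers, and the ratio to Ccl9 is tightest, at 4.16 to 4.88 in WT and 2.35 to 2.77 in KO.

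Of the 10 ligands, 7 lie on chromosome 11, the chromosome of the deleted microRNAs, and 3 (Cxcl2, Cxcl9 and Cxcl10) on chromosome 5. In GENCODE M21 on GRCm38, Ccl5 (chr11:83525778-83530518), Ccl9 (chr11:83572919-83578636), Ccl6 (chr11:83587882-83593087), Ccl3 (chr11:83647844-83649355) and Ccl4 (chr11:83662584-83664683) form a cluster of 138.9 kb. Ccl2 (chr11:82035571-82037453) and Cxcl16 (chr11:70453983-70459984) lie apart from it, and the 7 genes are 3.96 to 7.61 Mb from Mir144. None of the 5 clustered genes was called on genotype alone, with log2 fold changes from -0.55 in Ccl5 to 0.78 in Ccl3, and with the myeloid marker covariate all 5 were below 0, from -1.19 in Ccl6 to -0.086 in Ccl3. Slfn8, a Schlafen family gene 505 kb from Ccl5, was lower in KO (-1.80, SE 0.10) and its neighbour Slfn9 was higher (3.32, SE 0.23), both called by edgeR's test (adjusted p = 0.00115 and 0.00311). Of the 21 other genes tested within 500 kb of the cluster, none passed the adjusted threshold. An unadjusted p under 0.05 was found for 1, AA465934, and for 6.25% of all genes tested. AA465934 was at 0.228, 1.37 and 0.496 CPM in WT1, WT2 and WT3 and at 10.2, 9.86 and 7.67 CPM in KO1, KO2 and KO3, apart between genotypes, with a log2 fold change of 3.69 (SE 0.49, unadjusted p = 6.11e-05 and adjusted p = 0.150 in edgeR's test). It passed the filter on low counts only through its KO libraries, so these values rest on the group that let it be tested.

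The rest of the ligand family was mostly silent in these libraries. Of 29 other chemokine ligands with an identifier, 12 had a count of 0 in all 6 libraries, 10 did not pass the filter and reached at most 15 counts, and 7 were tested. In KO, 4 of the 7 were higher and 3 lower, none was called, and 1 had an unadjusted p under 0.05, as did 6.25% of all genes tested. That gene was Ccl24, an eosinophil attractant that macrophages make, at 0.342, 0.685 and 0.869 CPM in WT1, WT2 and WT3 and 1.97, 4.69 and 1.37 CPM in KO1, KO2 and KO3. All KO libraries lay above all WT libraries, as for 5.83% of all genes, with a log2 fold change of 2.06 (SE 0.60) and an adjusted p of 0.665 in edgeR's test. Ccl24 passed the filter on low counts only through KO, with 17, 39 and 12 counts against 3, 6 and 7 in WT. Its separation and change thus rest on the group that let it be tested. Its counts were low, from 3 to 39, and the red pulp macrophage markers were likewise highest in KO2 and KO1. Xcl1, the ligand of Xcr1, changed by 0.042 (SE 0.27) and Ccl22, which attracts regulatory T cells, by 0.38 (SE 0.39), neither being called.

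Of 9 receptors of the ligands, 8 were tested, with 5 higher and 3 lower in KO, none called, and a median log2 fold change of 0.22. That median was -0.27 with the myeloid marker covariate and ran from -0.011 (without KO1) to 0.52 (without WT1) with 1 library left out. Ccr3, a receptor for Ccl5 and Ccl24 on eosinophils, was at 25.9, 18.1 and 17.0 CPM in WT1, WT2 and WT3 and at 37.3, 46.6 and 22.0 CPM in KO1, KO2 and KO3. KO3 lay within the WT range, and the log2 fold change of 0.79 (SE 0.28) had an adjusted p of 0.749 in edgeR's test. The most abundant receptors were Ccr2, with a log2 fold change of 0.22 (SE 0.26), and Cxcr3, with -0.15 (SE 0.27). Cxcr3 was at 53.4, 67.5 and 69.2 CPM in WT and at 58.3, 33.8 and 79.0 CPM in KO, lowest in KO2, where the T cell markers were also lowest.

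Of 14 genes of the interferon-gamma pathway, which induces Cxcl9 and Cxcl10, 13 were tested, with 5 higher and 8 lower in KO and a median of -0.058. None was called, and 1 had an unadjusted p under 0.05, as did 6.25% of all genes tested. Irf8, a transcription factor of the pathway that is also needed for cDC1 development, was at 289, 224 and 260 CPM in WT1, WT2 and WT3 and at 392, 385 and 287 CPM in KO1, KO2 and KO3, and KO3 lay just under WT1. Its log2 fold change was 0.46 (SE 0.15), with an adjusted p of 0.712 in edgeR's test. Jak1, a kinase bound to the interferon-gamma receptor, was the most abundant, with a log2 fold change of -0.12 (SE 0.11).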

How the data were processed

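RNA was harvested from 6 spleen samples and sequenced by the authors. The deposited tables hold expected counts per Ensembl gene (estimated read counts, not always whole), a unit read from the values. The aligner, counter, annotation and strand setting are not given in the sources used here, and the submitters' processing notes name GRCm38 (mm10). Counts were rounded and analysed in R 4.3.3 with edgeR 4.0.16 (TMM, filterByExpr with a minimum count of 10 and total of 15, quasi-likelihood test, Benjamini-Hochberg adjustment over 13024 genes, threshold 0.05). Values are TMM-normalized CPM. Alternatives were DESeq2 1.42.0, limma voom 3.58.1, other scalings and filters, the replicate number as a block, a myeloid marker covariate and each library left out. Exact permutation tests were two-sided. Counts limit precision: 3 counts correspond to 0.342 to 0.372 TMM-normalized CPM, covering counting error only.

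The members and lists were chosen with earlier results of these data known. Besides the 10 ligands, genes were named where they were in the lists of other ligands, receptors or interferon-gamma pathway with an unadjusted p under 0.05, were the 2 of highest mean in such a list, were among the 3 nearest in profile to a ligand of at least 10 CPM, or were Slfn8 or Slfn9. Xcr1, Ace and AA465934 were given values or singled out after their values were seen, as was Cd8a. Marker lists summed in CPM ran from 1070 to 1784 in WT and 1107 to 1905 in KO for monocytes, 1399 to 2465 and 1211 to 2815 for B cells, 2816 to 3826 and 1951 to 3648 for T cells, 41.1 to 85.9 and 51.9 to 103 for NK cells, 603 to 748 and 453 to 673 for effector or memory T cells, 159 to 193 and 164 to 215 for plasmacytoid dendritic cells, 600 to 867 and 802 to 2188 for red pulp macrophages, and 247 to 857 and 445 to 2714 for erythroid cells. Positions and 3′-UTRs came from GENCODE M21, and microRNA and promoter sequences from RefSeq. The procedure was tested on simulated counts. Replicate pairs differed by more than sampling noise. Some genes that this rule names are not reported here.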

Additional observations from a re-analysis of the deposited data

How the results depend on the processing

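The number of genes called over the whole table, 4 in the main comparison, was 58 with DESeq2, 12 without a filter, 9 with the myeloid marker covariate and 2 to 94 with 1 library left out, the highest without KO3. No ligand was called in any of the 14 alternatives but the covariate, where 1 (Ccl6) was. At an unadjusted p under 0.05, 2 ligands passed in the main comparison, 1 with limma voom, 5 with the covariate and 0 to 3 with 1 library left out, the lowest without KO1. The share of all genes at that p was taken only for the main comparison and the covariate. The ligands with libraries apart numbered 1 to 4 with 1 library left out. The share of all genes apart was not taken for those fits. Fewer libraries are apart more easily, so these counts have no background to be read against. Whether the replicate numbers pair the samples is not given in the sources used here. WT and KO libraries of the same number correlated at -0.0066, -0.22 and 0.13 in their deviations from the group means. With 3 libraries per genotype, these values cannot settle it. With the replicate number as a block, 9 genes and 0 ligands were called, 1 ligand had an unadjusted p under 0.05, and Cxcl2 reversed to -0.17.

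Medians of lists moved or reversed in sign as follows. The ligands' median was 0.026 with limma voom, 0.19 with the block and -0.35 with the covariate, and ran from -0.12 (without KO2) to 0.41 with 1 library left out. The other ligands' median, 0.042 in the main comparison, was -0.38 without a filter and -0.072 with a mean of at least 10 counts, and ran from -0.16 to 0.24. The receptors' median was -0.27 with the covariate and ran from -0.011 to 0.52. The interferon-gamma pathway's median was 0.015 with the covariate and ran from -0.15 to 0.023. Single ligands reversed too. Ccl2 was -0.23 with limma voom, -1.01 with the covariate and -0.14 (without KO2) to 0.99 with 1 library left out. Cxcl2 was -0.21 with limma voom, -1.11 with the covariate, -0.13 without WT2, -0.053 without WT3 and -0.74 (without KO2) to 0.46 with 1 library left out. Ccl3 was -0.086 and Ccl9 -0.31 with the covariate. Ccl4 was 0.37 without WT1, 0.24 without KO1 and 0.012 without KO3, and with 1 library left out its lowest value was -0.44, without KO2. Ccl6 was 0.38 without WT1 and 0.20 without KO3, and with 1 library left out and no covariate its lowest value was -0.40, without KO1. Cxcl10 ran from -0.099 (without KO2) to 0.42 (without KO1). The cause was not tested. The fits of Ccl6 with a single marker list as covariate, or with the covariate and 1 library left out, were chosen after seeing the data, and all kept its direction. Ccl2, with 1 to 20 counts per library, is limited by depth.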
